A study of Homo sapiens with 4 samples.

Results

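New peaks of DNA methylation at the starts of pseudogenes were analyzed in HEK293 cells, a human embryonic kidney line, that carried an epigenome editor built on wild type DNMT3A. Such a new peak is a region that the authors listed as gained over untreated cells. A peak was included if it came within 1000 bp of the start of a gene that GENCODE 44, lifted to hg19, calls a pseudogene, and if it lay more than 1000 bp from the canonical start of every protein-coding and every long noncoding RNA (lncRNA) gene. On chromosomes 1 to 22, 286 peaks lay that close to a pseudogene start, and 156 of them were left out because of a coding or lncRNA start. The remaining 130 peaks made up 1.03% of the 12667 peaks on these chromosomes and belonged to 132 pseudogene starts. The whole list holds 12864 peaks. The cells had been transfected with dCas9-SunTag, with an antibody fusion of the catalytic domain of DNMT3A and DNMT3L (Ab-3A3L), and with an sgRNA against the CpG island of ISG15. After 3 days they were sorted for carriers of each plasmid. The other conditions of the study were untreated cells and cells with the K844E or R887E mutant of DNMT3A, and these 3 libraries were not analysed here. The cells with an editor were transiently transfected. Each condition had 1 library, so that no spread between replicates can be given and no test between conditions or groups of peaks was run.

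A pseudogene is a copy or relic of a gene that no longer makes the gene's product. Processed pseudogenes arose when a messenger RNA was copied back into DNA and inserted elsewhere, so they lack introns and, as a rule, the promoter of the parent gene. Unprocessed pseudogenes mostly stem from duplicated pieces of the genome and can bring the promoter with them. Unitary pseudogenes are single genes that lost their function. DNMT3A sets methyl groups on the cytosine of CpG sites and works with DNMT3L, and MBD2 binds such methylated CpGs. MBD-seq captures sheared DNA on MBD2 and sequences it, so that the reads at a region follow the number of its methylated CpGs. Methylated CpGs mutate to TpG or CpA with time, and unmethylated CpG islands at promoters escape much of this loss.

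To show what kind of sequence gained methylation, a stretch of hg19 is given for 7 of the peaks, with every CpG in capitals. They comprise the peaks with the highest fold at an unprocessed, an unspecified and a processed pseudogene (PDE4DIPP2, RHEBP2 and TPRG1LP1). Added to these are a copy with a close parent (RWDD4P2), a member of a subtelomeric family (WASH8P) and a copy whose sequence recurs elsewhere in the genome (DUX4L26). For these 6 the plus strand is printed for 100 bases on either side of the summit, at chr1:145075654-145075854, chr10:47395992-47396192, chr19:58175712-58175912, chr7:39894596-39894796, chr12:74622-74822 and chr3:75718319-75718519 in this order. They hold between 18 CpGs (DUX4L26) and 35 CpGs (RHEBP2) in 201 bases.
PDE4DIPP2: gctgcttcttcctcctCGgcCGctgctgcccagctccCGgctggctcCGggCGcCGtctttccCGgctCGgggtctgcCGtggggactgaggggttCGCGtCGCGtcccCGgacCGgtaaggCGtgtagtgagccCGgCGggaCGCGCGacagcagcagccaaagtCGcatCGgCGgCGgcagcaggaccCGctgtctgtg
RHEBP2: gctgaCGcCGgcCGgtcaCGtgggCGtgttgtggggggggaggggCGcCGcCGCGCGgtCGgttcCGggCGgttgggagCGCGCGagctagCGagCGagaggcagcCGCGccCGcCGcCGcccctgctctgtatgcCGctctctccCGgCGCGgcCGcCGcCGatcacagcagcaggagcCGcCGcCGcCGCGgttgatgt
TPRG1LP1: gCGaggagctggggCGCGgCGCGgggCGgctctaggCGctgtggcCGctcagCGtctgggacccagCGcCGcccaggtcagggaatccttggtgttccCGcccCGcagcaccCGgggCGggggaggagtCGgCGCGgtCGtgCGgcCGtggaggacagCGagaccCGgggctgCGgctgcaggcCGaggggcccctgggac
RWDD4P2: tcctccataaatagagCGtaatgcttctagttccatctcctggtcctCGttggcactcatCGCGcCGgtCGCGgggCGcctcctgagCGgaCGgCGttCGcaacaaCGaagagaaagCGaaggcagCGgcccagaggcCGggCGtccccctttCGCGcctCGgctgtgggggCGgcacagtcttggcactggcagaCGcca
WASH8P: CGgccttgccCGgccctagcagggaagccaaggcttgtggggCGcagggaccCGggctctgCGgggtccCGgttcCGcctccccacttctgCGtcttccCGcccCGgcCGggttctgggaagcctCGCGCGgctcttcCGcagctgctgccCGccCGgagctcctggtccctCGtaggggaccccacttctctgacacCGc
DUX4L26: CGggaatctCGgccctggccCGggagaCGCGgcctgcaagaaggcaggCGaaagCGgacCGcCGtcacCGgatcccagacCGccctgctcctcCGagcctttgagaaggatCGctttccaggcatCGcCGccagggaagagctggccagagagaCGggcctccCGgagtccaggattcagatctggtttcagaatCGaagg

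EIF4EBP2P2 is shown beside its parent EIF4EBP2, which encodes a repressor of translation that binds the cap-binding protein eIF4E. The part of the EIF4EBP2P2 peak at chr15:42873542-42873686, on the minus strand, lies opposite the first coding bases of EIF4EBP2 at chr10:72164158-72164302, on the plus strand. The 2 stretches of 145 bases had the same base in 137 columns of the alignment (94.5%). Of the 15 CpGs of the parent stretch, 11 were still CpGs in the pseudogene and 3 read TpG or CpA.
EIF4EBP2P2: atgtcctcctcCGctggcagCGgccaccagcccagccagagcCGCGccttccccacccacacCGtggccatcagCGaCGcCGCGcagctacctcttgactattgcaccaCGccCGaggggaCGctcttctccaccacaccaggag
EIF4EBP2: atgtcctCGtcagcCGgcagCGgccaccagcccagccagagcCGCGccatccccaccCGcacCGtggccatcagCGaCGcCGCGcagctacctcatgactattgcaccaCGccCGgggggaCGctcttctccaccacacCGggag

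New peaks were rare at pseudogene starts. Of 13423 pseudogene starts that lay more than 1000 bp from every coding and lncRNA start, 131 had one of the peaks (0.976%, 95% exact binomial interval 0.817 to 1.16). The intervals given here and below cover counting error only. Among protein-coding starts 8315 of 19229 had a new peak within 1000 bp (43.2%), and among lncRNA starts away from coding starts 979 of 15487 did (6.32%). With peaks near a coding or lncRNA start allowed as well, 147 of the eligible pseudogene starts (1.10%) had a new peak. Starts of processed pseudogenes had a peak in 66 of 9525 cases (0.693%, interval 0.536 to 0.881). Starts of unprocessed pseudogenes did so in 41 of 2664 cases (1.54%, interval 1.11 to 2.08), a share whose interval lay above that of the processed ones. For the 327 starts whose gene type is given as pseudogene without a further kind, the share was 3.98% (interval 2.13 to 6.70). Among unitary pseudogenes 5 of 220 starts had a peak, and among ribosomal RNA pseudogenes 6 of 453. None of the 234 starts of immune receptor pseudogenes had one, which allows a share of up to 1.28%.

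The low share went along with few CpGs. The 1000 bp on each side of a pseudogene start held a median of 21 CpGs, compared with 97 at coding starts and 25 at lncRNA starts. In windows with fewer than 20 CpGs, 3 of 6024 pseudogene starts had a peak (0.0498%), and 1 of 1918 coding starts did (0.0521%). In the class with 20 to fewer than 50 CpGs the share was 0.522% for pseudogenes and 1.64% for coding genes. From 50 to fewer than 100 CpGs it reached 4.05% (49 of 1210) for pseudogenes and 30.7% for coding genes. From 100 to fewer than 150 CpGs the share was 16% (32 of 200, interval 11.2 to 21.8) for pseudogenes, 51.9% for lncRNA genes and 67.5% for coding genes. With 150 or more CpGs, 16 of 50 pseudogene starts had a peak (32.0%, interval 19.5 to 46.7), compared with 69.5% of lncRNA starts and 80% of coding starts. The share therefore rose with the CpG number for each kind of gene, and from 50 CpGs upward the pseudogene interval lay below those of the other kinds. A start that was already methylated in untreated cells cannot enter a list of gained peaks. Such starts were not taken out of the counts, neither here nor for the islands below. A lower share therefore need not mean less methylation after treatment.

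**Figure D1:**
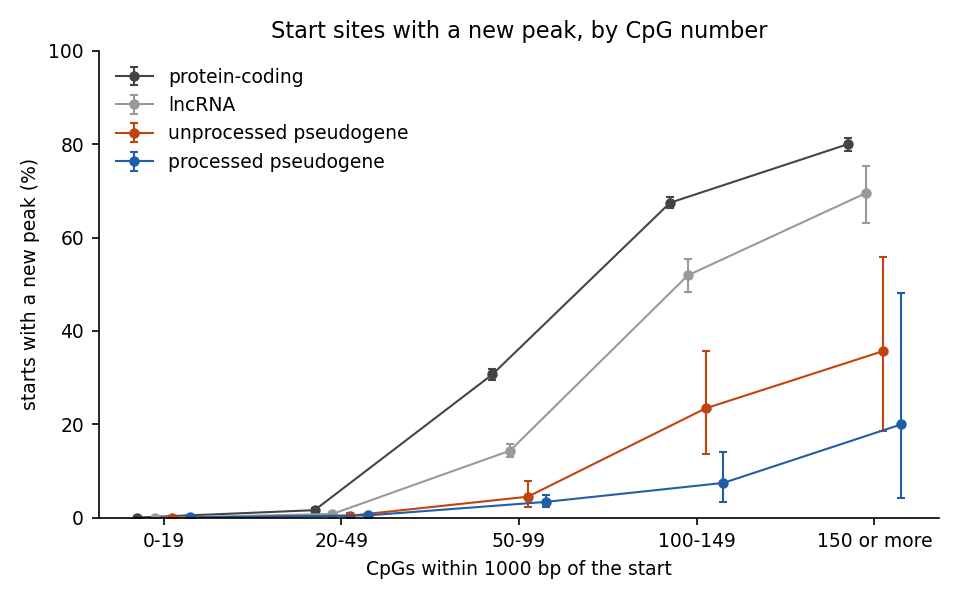
Share of start sites with a new peak (%) in 5 classes of the number of CpGs within 1000 bp of the start, for protein-coding, lncRNA, unprocessed and processed pseudogene starts; bars are 95% exact binomial intervals. In the class with 100 to fewer than 150 CpGs, unprocessed pseudogenes reach 23.4% and processed ones 7.48%, below the 67.5% of coding starts.

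CpG islands gave the same order. An island is a CpG-rich stretch of at least 200 bp with 50% GC or more, rebuilt here from the sequence. Of pseudogene starts with an island in the window, 101 of 1447 had a peak (6.98%), compared with 58.8% of coding and 31.7% of lncRNA starts. Unprocessed pseudogenes with an island had a peak in 36 of 277 cases (13.0%) and processed ones in 46 of 1043 cases (4.41%). Without an island the share was 0.251% for pseudogenes, 0.256% for lncRNA genes and 1.34% for coding genes.

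Families of pseudogenes were compared with the 0.976% of all eligible starts. The interval of the ribosomal proteins lay below that of all eligible starts and the one of the subtelomeric copies above it, while the intervals of the other families overlapped it. These shares were not adjusted for CpG number. Pseudogenes of ribosomal proteins, the largest family with 1497 eligible starts, had a peak at 2 of them (0.134%, interval 0.0162 to 0.482). RPL7AP77, a copy of a protein of the large ribosomal subunit, had a fold of 3.47, and its peak lay 977 bp from the start with the summit in a coding exon of TRIM50. Nuclear copies of mitochondrial DNA had no peak at 370 starts, which allows up to 0.811% by the limit of 3 counts (exact interval 0 to 0.992). Olfactory receptor pseudogenes had none at 422 starts, which allows up to 0.711% by the limit of 3 counts (exact interval 0 to 0.870). No peak was found at the 84 starts of tubulin and actin, the 181 of splicing and RNA binding and the 72 of zinc finger pseudogenes. Histone pseudogenes had peaks at 2 of 62 starts, among them H3C9P with a fold of 6.94. Translation factors had 1 of 138, the EIF4EBP2P2 peak. Energy enzymes had 2 of 278, of which COX20P2, a copy of an assembly factor of cytochrome c oxidase, had the higher fold of 9.31. Chaperones and cyclophilins had 1 of 214, PPIAP55 with a fold of 5.23. The subtelomeric WASH and DDX11L copies had a peak at 2 of 8 eligible starts (interval 3.19 to 65.1). Both peaks, of WASH8P and of DDX11L8 with a fold of 2.35, lay near the same end of chromosome 12. The share of this family therefore rests on that chromosome end. Its windows held a median of 46 CpGs, compared with 21 over all eligible starts and 21 for ribosomal proteins. An island lay in 50% of its windows, compared with 10.8% and 5.74%. The duplications of NBPF, PDE4DIP, GUSB, PMS2 and SMN had 2 of 39, and the 5S and 5.8S ribosomal RNA pseudogenes had 4 peaks at 6 of 449 starts. The other 114 peaks belonged to none of the families.

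The members had lower folds than the list as a whole, as did the 3230 peaks away from the starts of all 3 kinds of gene. The fold compares the fragments at the summit with a background rate, and both could be recovered from the listed fold and p-value. The median fold of the 130 peaks was 6.28, with quartiles of 3.78 and 9.14, compared with 7.45 over all peaks on these chromosomes and 8.07 at coding starts. They were narrower, with a median width of 370 bp compared with 501 bp. Their summits held a median of 21 fragments compared with 17, but their background rate was 2.08 fragments compared with 0.948. CpGs were at 9.06 per 100 bp, compared with 10.6 at coding starts. The peaks away from all starts had a median fold of 6.01, a width of 353.5 bp, a background rate of 1.93 and 7.82 CpGs per 100 bp, so that these traits were not particular to pseudogene starts. An island touched 103 of the 130 peaks (79.2%, interval 71.2 to 85.8), compared with 89.8% of all peaks, 98.7% at coding starts and 65.5% away from all starts (interval 63.9 to 67.2). Among processed pseudogenes it was 45 of 65 (69.2%), and among unprocessed ones 38 of 43 (88.4%).

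The highest fold was 32.3, with a −log10 q of 72.2, at PDE4DIPP2 on chromosome 1, an unprocessed pseudogene named after PDE4DIP, the gene of myomegalin, a protein of the centrosome and Golgi. No near-identical second place in the genome was found for this peak. Its peak at chr1:145075324-145076199 covered the pseudogene start, held 51 fragments over a background of 0.611 and ranked above 99.98% of all peaks. This peak also overlapped a non-canonical transcript start of a coding or lncRNA gene. RHEBP2, a copy of the gene of the GTPase RHEB that activates the kinase mTORC1, had a fold of 23.6. RP11-640M9.2 followed with 21.4 and ENSG00000285062 with 20.7, both on chromosome 1. ENSG00000285062 had a further peak of fold 6.70. LINC03028 on chromosome 10 had a fold of 18.9 outside any island. WASH8P on chromosome 12, a copy of a gene for a subunit of the WASH complex that nucleates actin at endosomes, had 18.1. TPRG1LP1 on chromosome 19, a copy of the gene of a presynaptic protein, led the processed pseudogenes with 18.0, and ENSG00000280852 on chromosome 17 followed with 17.4. Both had their summits within 164 bp of the pseudogene start. The 10 highest folds were completed by RP11-292B8.1 with 15.5 and RP11-152F13.3 with 14.9. These 10 peaks came from 4 unprocessed, 2 processed and 4 unspecified pseudogenes, and 8 of them lay in an island. EGFEM1P, with a fold of 7.46, had the highest of the 5 peaks at unitary pseudogenes, which ranged down to 3.32.

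Transcript starts other than the canonical ones were not used in the rule. Of the 130 peaks, 11 lay within 1000 bp of such a start of a coding or lncRNA gene, and 7 overlapped one. PDE4DIPP2, which overlapped such a start, and ISCA2P1 were among the 11, whose median fold was 9.21. ISCA2P1, a copy of a gene for mitochondrial iron-sulfur cluster assembly with a fold of 13.2, was also the peak closest to a canonical start, at 1034 bp, while the nearest peak left out for this reason, at chr16:28375719-28376314, lay 890 bp away and had a fold of 5.91. At the other limit, the peak of ENSG00000266995 lay 1000 bp from its pseudogene start with a fold of 6.09, and the nearest peak outside, at chr1:148855139-148855416, lay 1001 bp away with a fold of 3.22.

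The distance to a pseudogene start was part of the rule, so the positions of the summits are given as a description. The peak covered the start itself in 69 of 130 cases (53.1%), and the summit lay within 250 bp of it in 76 cases (58.5%). In the direction of the pseudogene, the median summit position was -42.5 bp, with quartiles of -229 and 168 bp. At coding starts the median was 180 bp, on the downstream side. For processed pseudogenes it was -54 bp, and 42 of 65 summits (64.6%) lay upstream of the start. For unprocessed pseudogenes the median was 17 bp, and 21 of 43 summits lay upstream. An exon of the pseudogene held the summit in 38 cases and an intron in 10. No canonical transcript of a coding or lncRNA gene covered the summit in 104 of 130 cases. Other transcripts were not searched here, and some of these peaks, such as PDE4DIPP2, overlapped a non-canonical transcript start. The next counts refer to canonical transcripts as well. An intron of a coding gene held 10 summits, among them that of EIF4EBP2P2 in STARD9, and lncRNA genes held 14. Exons of coding genes held 2 (1.54%), RPL7AP77 and MSX2P1, the second in an untranslated exon part of OR4D1 and named after its values were seen.

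**Figure D2:**
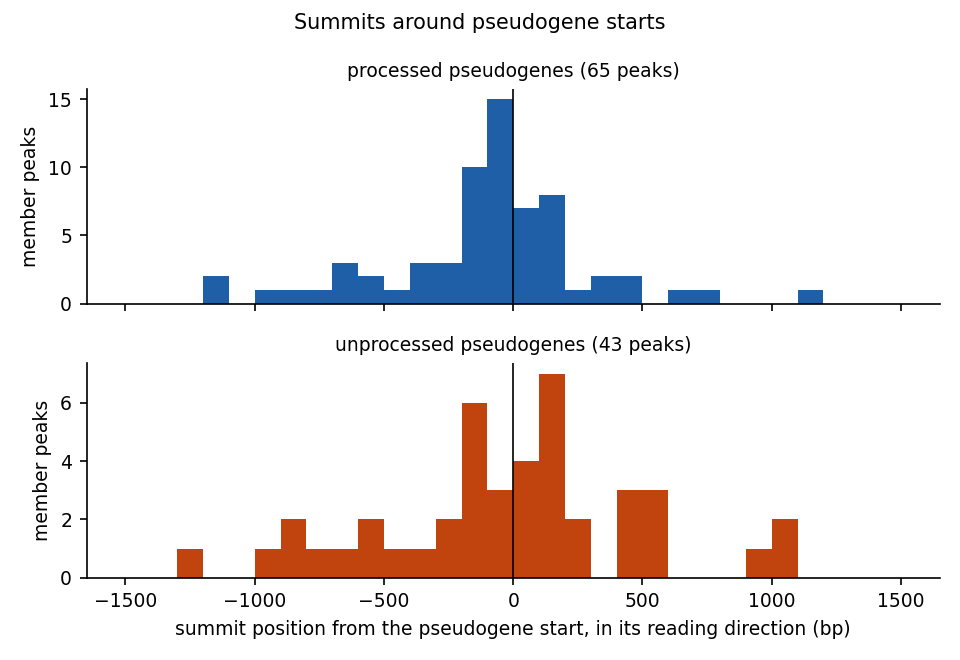
Number of peaks by the position of the summit from the pseudogene start (bp, in the direction of the pseudogene, bins of 100 bp), for 65 processed and 43 unprocessed pseudogenes. Of the 65 processed summits, 42 lie upstream of the start at any distance, and 43 lie within 250 bp of it on either side. Their median is -54 bp.

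Much of the sequence under some of these peaks occurs again elsewhere in the genome, so that reads of 150 bases cannot be assigned to 1 place there. For each peak, the share of its 150-base words found at a second place was counted on both strands. At least 50% of the words were repeated in 23 of the 130 peaks (17.7%, interval 11.6 to 25.4). Over all peaks it was 2.12%, at coding starts 0.772%, at lncRNA starts 4.65% and away from all starts 4.46% (interval 3.77 to 5.23). Processed pseudogenes had 3 of 65 such peaks (4.62%), unprocessed ones 10 of 43 (23.3%) and unspecified ones 7 of 13 (53.8%). No repeated word was found in 90 peaks, which had a median fold of 6.49 with quartiles of 4.65 and 9.14. The 23 peaks with at least 50% of the words repeated had a median fold of 5.14, with quartiles of 1.90 and 10.6. The 3 peaks of repeated sequence with the highest folds were ENSG00000285062 with 74.4% of its words repeated, WASH8P with 54.6% and RP11-152F13.3 with 100%. PDE4DIPP2, RP11-640M9.2 and LINC03028 led the peaks without any repeated word.

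**Figure D3:**
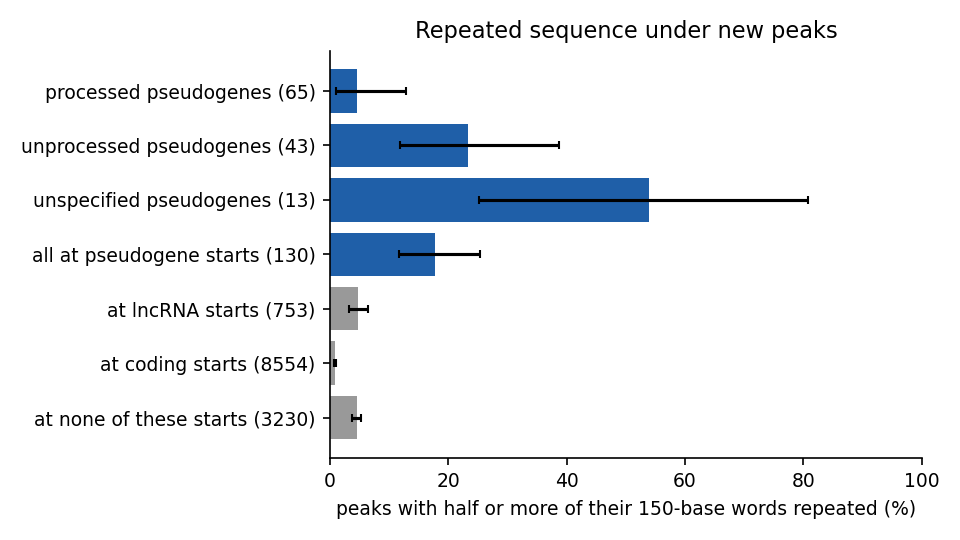
Share of peaks (%) with at least 50% of their 150-base words repeated in the genome, for groups of peaks with their numbers in parentheses; bars are 95% exact binomial intervals. The 130 peaks at pseudogene starts reach 17.7%, compared with 0.772% at coding starts.

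The lowest folds belonged to peaks with many fragments in the background. A background rate of 20 or more was found in 13 of the 130 peaks (10%), compared with 1.51% of all peaks and 4.33% of those away from all starts. A fold under 2 was found in 11 of the 130 (8.46%) in 0.774% of all peaks and in 2.14% of those away from all starts. The most fragments, 334 over a background of 209.6, lay at DUX4L26 on chromosome 3, a processed pseudogene. It is a copy of DUX4, a double homeobox gene that itself sits in tandem arrays. The DUX4L26 peak had a fold of 1.59 and all of its words were repeated. RP11-1109M24.9 on chromosome 17 had 297 fragments over 196 and the lowest fold of the members, 1.51. DUX4L13 on chromosome 10 had 247 fragments over 153 and a fold of 1.61, with no repeated 150-base word. Its best other copy, on an unplaced contig, had an identity of 99.6% over the whole peak. At the tandem array of the 5S ribosomal RNA genes on chromosome 1, RNA5SP19 had 210 fragments over 116, and the 2 peaks of RNA5SP162 had 194 over 109 and 177 over 105. Their folds were between 1.67 and 1.81, and all of their words were repeated. RNA5SP407, the ribosomal RNA pseudogene with the highest fold, reached 3.57 with 10 fragments. ENSG00000278131 on chromosome 2 had a fold of 1.58 over a background of 73.6 and no repeated word. High background and repeated sequence went together in part of these peaks, and their part in the folds was not tested.

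**Figure D4:**
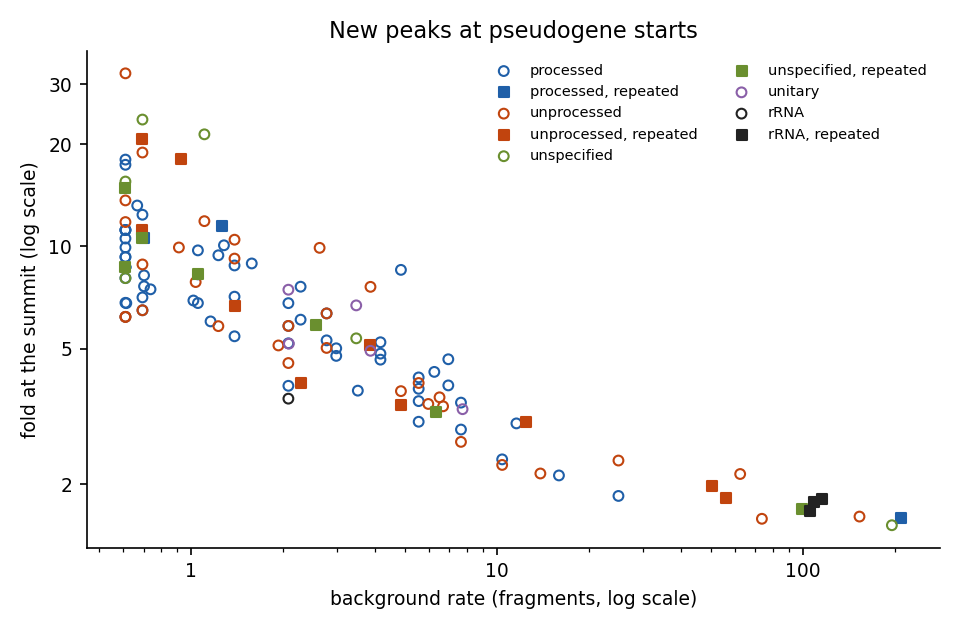
Fold at the summit against the background rate in fragments (both log scales) for the 130 peaks, by class of pseudogene; filled squares have at least 50% of their 150-base words repeated, open circles fewer. The 13 peaks with a rate of 20 or more have folds from 1.51 to 2.35, and the rate is itself part of the fold.

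Many peaks had a near-identical relative. A second place with at least 95% identity over at least 90% of the peak, limits chosen after the data had been seen, was found for 50 of the 130 (38.5%). It was found for 10 of 65 processed (15.4%), 24 of 43 unprocessed (55.8%) and all 13 unspecified pseudogenes. In 37 of the 50 the best such place was on the same chromosome, and in 29 of the 50 it lay under a new peak too. RP11-640M9.2 matched a place in NBPF15, of a family of genes multiplied on chromosome 1, at 98.1% identity, and that place also had a new peak. The WASH8P peak matched the WASH7P locus at 99.2% identity, and that locus had a fold of 25.4. For RHEBP2 the copy lay at RHEBP1 on the same chromosome at 99.3% identity, with a fold of 10.6. RP11-152F13.3 had an identical copy with a fold of 10.6. The copy of ENSG00000285062 at 99.4% identity had no new peak. Peaks at such pairs may share reads and are not independent of each other. The authors' hg19 sequence can hold alternative haplotypes that were not searched here.

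The peaks were compared with the parent gene to describe which part of it they matched. They had been chosen near pseudogene starts, so a match near the start of the parent was favoured by the rule. Pseudogene starts without a peak were not aligned for comparison. Taking off the pseudogene suffix named a coding parent for 44 of the 130 pseudogenes, 37 of them processed. At least 50% of the peak aligned to that parent at 80% identity or more in 28 of the 44 (63.6%), and in 24 of the 37 processed ones (64.9%). The median identity of the 28 was 92.3%. In 21 of the 28 (75%) the aligned segment touched the first exon of the canonical parent transcript, and in 18 (64.3%) it was at least 90% exonic. It reached upstream of the parent start in 7. An island of the parent overlapped the segment in 24 of the 27 on chromosomes 1 to 22 (88.9%).

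In the aligned segments most CpGs of the parent were also CpGs in the pseudogene. The segments had been chosen through a peak over the copy and through a lower limit of identity. Both choices favour kept CpGs. Copies without a peak were not aligned, so the shares describe these segments only. Whether CpGs were kept more than other bases was not tested. Of 1091 CpGs in the parent segments, 883 (80.9%) were CpGs in the pseudogene, and 92 (8.43%) read TpG or CpA. CpGs of the same segment are not independent, and SMG1 and FABP5 each gave 2 overlapping segments, so no interval is given. The median share kept per segment was 78.5%. RHEBP2 kept all 61 CpGs of its 433 bp segment of RHEB at 99.3% identity. RWDD4P2 kept all 30 of RWDD4 at 99.1% identity, and its own fold was only 2.37 with a background of 10.4, while the parent segment had 7.12. MEMO1P1, with 99.3% identity over the whole peak, kept 42 of the 45 CpGs of MEMO1, a gene linked to cell motility, and its segment was exonic over 11.6% of its length. EIF4EBP2P2 kept 24 of 41 and had 8 decayed to TpG or CpA. Among the 24 segments with 10 or more parental CpGs the lowest share was 35.3%, in DEPDC1P2, with 6 of 17, which was named after its values were seen. The COX20P2 and ISCA2P1 peaks aligned to their parents over 44.3% and 31.4% of their length, below the limit. PDE4DIPP2, TPRG1LP1, PPIAP55 and RPL7AP77 had no alignment to the parent of their symbol.

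**Figure D5:**
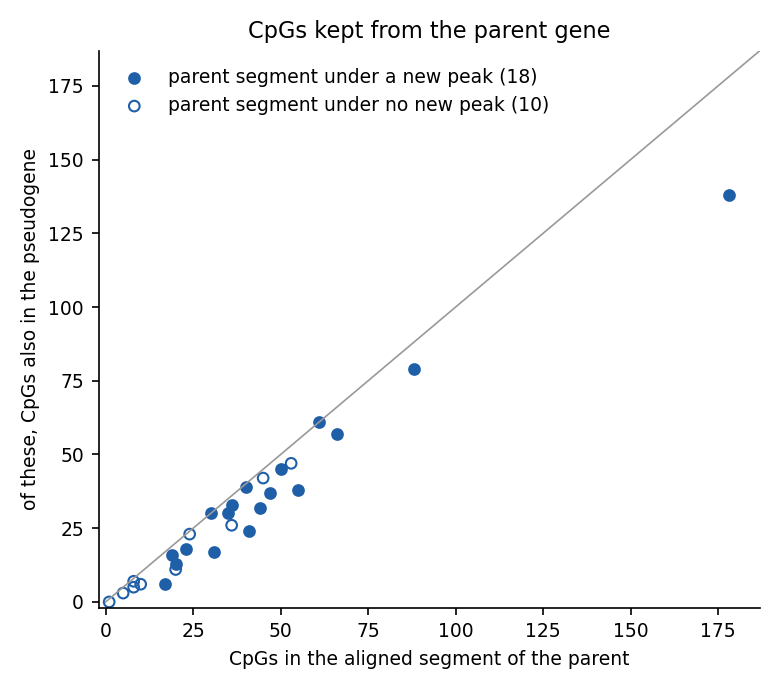
CpGs in the aligned segment of the parent gene (x axis) and how many of them are also CpGs in the pseudogene (y axis) for the 28 aligned peaks; filled points have a new peak over the parent segment and the line marks all CpGs kept. In all, 883 of 1091 parental CpGs are kept.

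New peaks often covered the parent too. Among the aligned pairs, the start of the parent had a new peak within 1000 bp in 23 of 27 cases (85.2%). Over all protein-coding starts this share was 43.2%, and over those with an island in the window 58.8%. These are unlike sets, because the 27 parents were selected through a copy with a peak, and SMG1 and FABP5 each stand in 2 pairs. Parents of all eligible pseudogenes, counted below, are a closer set. Near-identical pairs may share reads. The aligned segment itself lay under a new peak in 18 of 28. In these 18 pairs the median fold was 7.92 at the pseudogene and 7.62 at the parent, and the parent had the higher fold in 10. For EIF4EBP2P2 the fold was 11.2 and at the EIF4EBP2 segment 9.55. RHEBP2 had 23.6 and the RHEB segment 6.77. The MEMO1 segment had no new peak. Seen from the side of the parents, of 2847 eligible pseudogenes whose parent start had a new peak, 36 had one of the peaks (1.26%, interval 0.887 to 1.75). Of 3191 whose parent start had none, 6 had one (0.188%, interval 0.0690 to 0.409). Processed pseudogenes with 20 to fewer than 50 CpGs in the window had a peak in 13 of 1216 cases (1.07%, interval 0.570 to 1.82) in the first group and in 2 of 1347 (0.148%, interval 0.0180 to 0.535) in the second. With 50 to fewer than 100 CpGs it was 12 of 317 (3.79%, interval 1.97 to 6.52) and 2 of 180 (1.11%, interval 0.135 to 3.96), and these intervals overlapped. Pseudogenes of 1 parent share sequence, so they are not independent of each other.

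Short sequence motifs were counted in the 150 bases on either side of the summit. Of the 8 motifs, the telomere repeat unit was the one whose interval in the 130 peaks lay apart from that in the list as a whole. CGCG was found on either strand in 112 of the 130 peaks (86.2%) and in 90.4% of all peaks. The SP1 box GGGCGG was in 86 (66.2%) and in 73.5% of all peaks. The ETS core CCGGAAG was in 11 (8.46%) and in 7.46% of all. AAGATGGCG, the core of YY1 sites, was in 3 (2.31%, interval 0.478 to 6.60) and in 0.734% of all, and GCGCATGC, the core of NRF1 sites, was in 3 (2.31%) and in 1.67% of all. TATAAA was in 4 (3.08%) and in 1.86% of all. The telomere repeat unit TTAGGG was in 1 (0.769%, interval 0.0195 to 4.21) and in 4.93% of all (interval 4.56 to 5.33). TGACGTCA, the CRE, was in none of the 130, which allows up to 2.31%, and in 0.663% of all. CGCG can overlap GCGCATGC, and each match only describes the letters in this window.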

How the data were processed

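Of 4 MBD-seq libraries, 1 per condition, the peak list of the wild type condition was used. The authors mapped reads of 150 bases to hg19 with Bowtie2 under default settings. The labels also name MACS2, FastQC and deepTools, without versions, and give the build as hg19 and GRCh37. The deposited list holds a score per peak, left unused. The authors' fold enrichment is a ratio of summit to background fragments. Both −log10 columns, of p and of q, are as deposited. The last deposited column gives the summit. No total read count is in the list. No replicates were pooled.

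The peaks, the families and the comparisons were chosen with earlier results of these data known. Fragments k and the background rate were recovered from the fold as (k + 1)/(rate + 1) and from the Poisson p-value, which were matched within 0.000403. Starts were those of canonical transcripts in GENCODE 44, or the 5′ end of the gene for 354 of 14081 pseudogenes without a canonical tag. Islands were built from unmasked sequence with a length over 200 bp, 50% GC and a ratio over 0.6, and touched a peak by at least 1 bp. Peaks were aligned to GRCh37 with blastn 2.17.0 (megablast, word size 20, identity of at least 75%). Exact binomial intervals were computed with scipy 1.17.1 in Python 3.11.15, and a share of 0 was given the limit of 3 counts of the total. Peaks named were the 10 highest and 5 lowest folds, the 5 with the most fragments, the highest fold per gene type with at least 3 peaks and per family, the 3 highest with at least 50% of the words repeated and with none, the 3 most identical to a parent and those at the distance limits. The steps were tested on simulated data. Alternatives covered the peak threshold, the window, the overlap, the start site, the island criteria, the word length and the alignment limits.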

Additional observations from a re-analysis of the deposited data

How the results depend on the processing

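In all, 56 alternatives were computed for 8 results, and 39 of them stayed within the counting interval of the reported value, or within 1.5 times it for counts. With peaks of at least the median fold of the list, the peaks fell to 52 and the pseudogene starts to 52, with 0.380% of eligible starts, 88.5% in islands and a median fold of 9.93. With a −log10 q of at least 10, these values were 56, 56, 0.410%, 89.3% and 9.82. With 2000 bp for both the window and the distance from coding and lncRNA starts, 1.24% of eligible starts had a peak. Stricter islands of at least 500 bp held 53.8% of the peaks. Repeated words were found in 32.3% of the peaks with words of 50 bases, in 26.2% with a limit of 10% of the words and in 11.5% with a limit of 90%. Alignment to a named parent fell to 35.1% of processed pseudogenes when 80% of the peak had to align, and to 40.5% at 90% identity. Fewer peaks enter under the stricter thresholds by construction, and other causes were not tested. No paired analysis was possible because each condition has a single library. The peaks held a median of 21 fragments at their summits, which limits how well single folds can be told apart.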

Other observations

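Peaks at pseudogene starts were found on all 22 chromosomes. Chromosome 1 held 17, chromosome 17 held 15 and chromosome 7 held 14. On chromosome 17, 16 of 509 eligible starts had a peak (3.14%), compared with 15 of 866 on chromosome 7 (1.73%) and 1 of 730 on chromosome 5 (0.137%). Chromosomes 17 and 5 had the highest and lowest of the 22 shares, and over all eligible starts it was 0.976%. CpG number was not taken into account. Some chromosome 17 peaks, such as DND1P1 and ENSG00000262539, are near-identical copies and not independent. The 15 peaks of chromosome 17 had folds from 1.51 at RP11-1109M24.9 to 17.4 at ENSG00000280852. Pseudogenes annotated as transcribed had a peak at 7 of 445 processed starts (1.57%, interval 0.635 to 3.21) and those not so annotated at 59 of 9080 (0.65%, interval 0.495 to 0.837). For unprocessed pseudogenes the shares were 11 of 534 (2.06%) and 30 of 2130 (1.41%). The intervals overlapped in both pairs. An island lay in the window of 16.9% of the transcribed processed starts and of 10.7% of the others.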
